A study of Mus musculus with 16 samples.

Results

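The 9 genes described here carry main steps of lymphatic vessel growth: Ccbe1 and Adamts3, which help to process the growth factor VEGFC; Vegfc and Vegfd, the ligands; Flt4 and Nrp2, the receptors; and Prox1, Lyve1 and Pdpn, markers of lymphatic endothelium. They were taken from a list of symbols, drawn up with earlier results of these data known, and each matched 1 of the 57180 genes in the count files. All 9 were among the 17276 genes with enough counts to be tested. Poly(A) RNA was counted in 16 libraries of fetal mouse lung taken at E14.5 (days of embryonic age), from fetuses that the design text gives as male. The 4 groups of 4 libraries were C57BL/6J (B6) control, B6 BMS493, A/J control and A/J BMS493. BMS493 lowers the basal activity of every retinoic acid receptor (a pan-receptor inverse agonist); treated dams swallowed 3.75 µg per g daily between E9.5 and E14.5, and control dams corn oil. Neither strain is described as carrying an engineered allele, and treatment reached the fetuses through the dam. Litters are not given, so the p-values below measure the spread between these samples only.

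Lymphatic endothelial cells arise mainly from embryonic veins, where the transcription factor PROX1 sets their identity. They sprout towards VEGFC, which is secreted as a precursor and is cut to its active form by the protease ADAMTS3 with the help of the secreted protein CCBE1. Mature VEGFC, and its relative VEGFD, bind the receptor encoded by Flt4 (VEGFR-3), and the neuropilin encoded by Nrp2 acts as a co-receptor. In the lung, lymphatic vessels clear fluid and are needed for inflation at birth. Most of these genes also have other sources in a fetal lung: LYVE1 is present on some macrophages, PDPN on alveolar type 1 cells and mesothelium, PROX1 in neuroendocrine cells, heart and liver, and NRP2 in nerves and smooth muscle.

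Libraries held between 15207539 and 24146224 counts in genes. Levels are given as CPM, a gene's count relative to the total of its library after TMM scaling between libraries. The tests are edgeR's quasi-likelihood tests, adjusted by Benjamini-Hochberg over the 17276 genes; a call below means an adjusted p under 0.05. Each log2 fold change has its standard error (SE). As a check of the treatment, 5 retinoic acid targets (Rarb, Cyp26b1, Dhrs3, Lrat and Stra6) were all lower after BMS493. All 5 were called in B6, from a log2 fold change of -1.02 (Rarb) to -3.68 (Cyp26b1). A/J gave 4 calls, with Stra6 at -0.76 (SE 0.21, adjusted p = 0.172). Library 2 of the B6 BMS493 group stood apart in alveolar type 1 markers, whose 7 genes summed to 668.6 CPM, where its 3 companion libraries had 352.6 to 387.9. Library 3 of that group stood apart in Col1a1, a collagen gene, at 5613 CPM, where its companions had 2554 to 2840. Results that turn on either library are given without it.

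Per kilobase of exon, so that genes can be set side by side, the ligand Vegfd had the highest level in B6 control lungs (27.5 ± 0.808 CPM per kb, mean ± SD, n = 4). Lyve1 followed at 18.2 ± 0.370, then Pdpn at 13.6 ± 1.35. Nrp2 (8.04 ± 0.382), Flt4 (7.40 ± 0.604) and Vegfc (7.34 ± 0.393) lay within about their spread of one another. Adamts3 was at 3.16 ± 0.159, Ccbe1 at 2.33 ± 0.248 and Prox1, the lowest, at 1.06 ± 0.161. In A/J controls the order changed at the top: Lyve1 came first at 18.5 ± 0.885 and Vegfd second at 14.9 ± 0.862, while Pdpn (10.8 ± 1.22) and Nrp2 (10.6 ± 0.883) were within their spread. Ccbe1 and Adamts3 were below both ligands in all 4 groups.

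**Figure D1:**
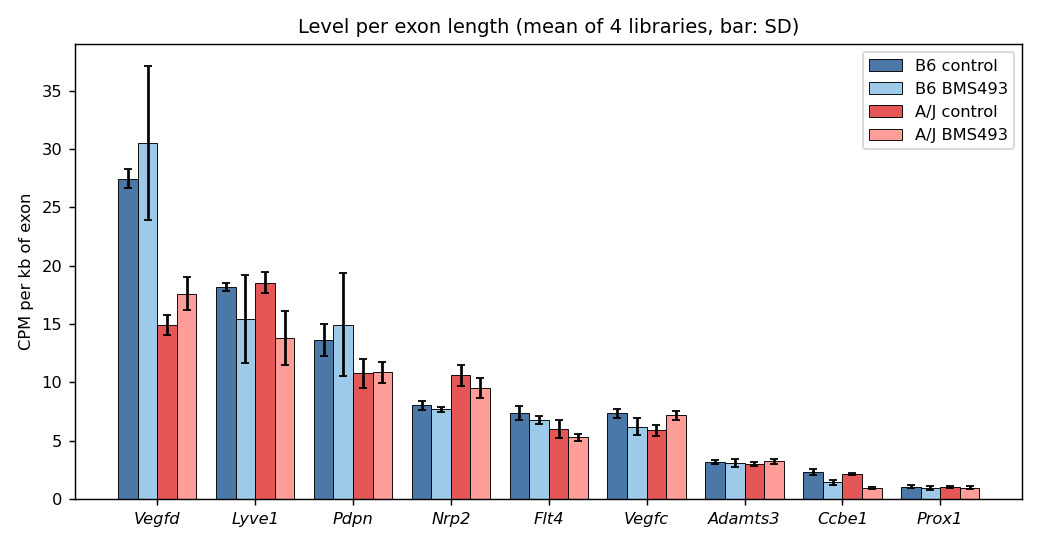
Level of each gene in CPM per kb of exon, by group; bars are means of 4 libraries and error lines are the SD. Vegfd is highest in B6 controls (27.5), Lyve1 in A/J controls (18.5), and Prox1 is lowest in both.

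Treatment gave a call for 1 of the 9 genes in each strain, and it was the same gene. Ccbe1, the cofactor of VEGFC cleavage, fell in each. Its level in B6 controls was 22.74, 27.68, 27.35 and 23.01 CPM in replicates 1 to 4, and after BMS493 it was 17.27, 13.40, 12.81 and 18.03. In A/J controls it was 22.91, 22.77, 21.72 and 23.82, and after BMS493 11.18, 9.151, 9.907 and 10.68. Every treated library was below every control of its strain. The log2 fold change was -0.71 (SE 0.11, adjusted p = 0.00143) in B6, a level 0.610 times that of controls, and -1.16 (SE 0.11, adjusted p = 5.06e-07) in A/J, 0.449 times. By p-value it ranked 10 of 17276 genes in B6 and 6 in A/J. Of all genes, BMS493 gave calls for 0.423% in B6 (0.347% lower) and 0.486% in A/J (0.423% lower), and 26 genes (0.150%) were called lower in both. Treated and control libraries did not overlap for 1 of the 9 genes in B6 and 4 in A/J (Ccbe1, Lyve1, Vegfc and Vegfd), where 4.71% and 4.87% of all genes did not. In whole lung, fewer cells of a type and less RNA per cell cannot be told apart. Without library 3 of the B6 BMS493 group the B6 value was -0.64 (adjusted p = 0.00246), and without library 2 it was -0.65 (0.00634).

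The point estimate for Ccbe1 was larger in A/J, but the test of the difference itself did not pass. The A/J effect minus the B6 effect was -0.44 (SE 0.16, approximate 95% interval -0.78 to -0.10, unadjusted p = 0.00898), with an adjusted p of 0.999. Over the whole table only 1 gene (0.00579%) was called for that difference. Between control strains Ccbe1 was not called (log2 fold change A/J against B6 -0.15, SE 0.11, interval -0.38 to 0.08, adjusted p = 0.389). After BMS493 Ccbe1 was lower in A/J (-0.59, SE 0.11, adjusted p = 0.000476), with the A/J treated libraries below all B6 treated ones. Ccbe1 lies on chromosome 18 and shares 2.95% of its exon bases with Gm15958 on the opposite strand; the counts do not separate strands, and the sum of the stranded columns was 1.046 times the unstranded count.

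The partner protease was not called. Adamts3, on chromosome 5, ranged from 14.33 to 19.09 CPM over all 16 libraries, and its groups overlapped in each treatment comparison. Its log2 fold change was -0.04 (SE 0.10, interval -0.25 to 0.16) in B6 and 0.10 (SE 0.09, interval -0.11 to 0.30) in A/J, with adjusted p of 0.926 and 0.999.

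**Figure D2:**
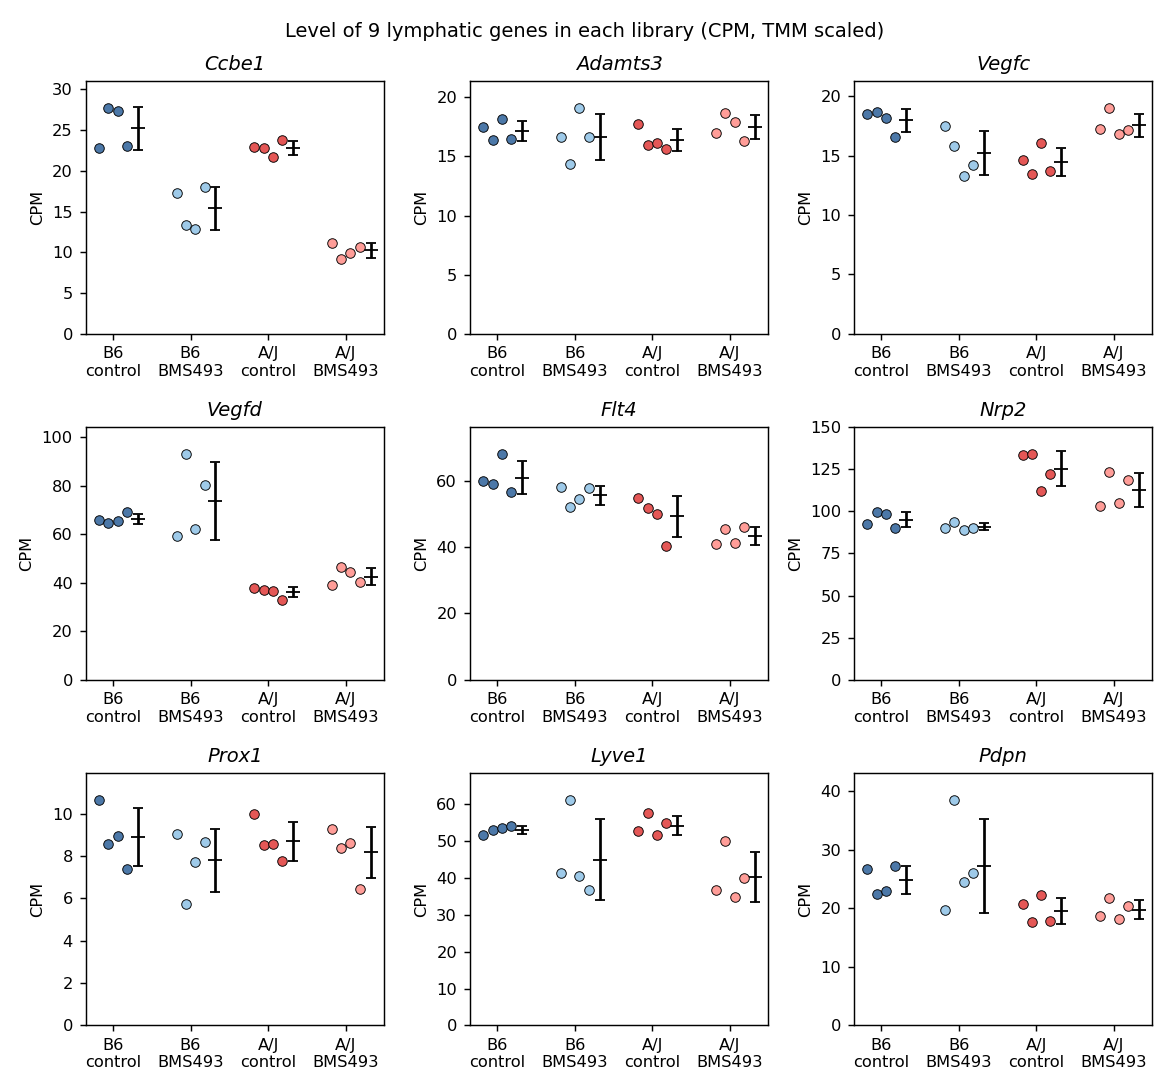
CPM of each of the 9 genes in every library, by group (points, 1 per library, with mean and SD beside them; y axes start at 0 and differ between genes). Ccbe1 is lower in all treated libraries than in the controls of its strain; Vegfd is lower in A/J than in B6 in both treatments.

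For Vegfc, on chromosome 8, the treatment values had opposite signs in the strains, and neither passed the test. In B6 controls it was 18.51, 18.71, 18.15 and 16.59 CPM and after BMS493 17.47, 15.86, 13.28 and 14.18, so the groups overlapped. In A/J controls it was 14.61, 13.46, 16.03 and 13.73 and after BMS493 17.21, 19.01, 16.84 and 17.18, all above the controls. The log2 fold change was -0.24 in B6 (SE 0.10, adjusted p = 0.446) and 0.28 in A/J (SE 0.10, adjusted p = 0.415). The difference between these effects was 0.52 (SE 0.14, interval 0.22 to 0.82, unadjusted p = 0.000977), rank 12 of 17276 by p-value, and its adjusted p was 0.999. Controls of A/J were 0.803 times those of B6 (log2 fold change -0.32, SE 0.10, adjusted p = 0.0269), a call with no overlap of the groups. With the second stranded column it was lost (-0.24, adjusted p = 0.223), as it was with no filter (0.0504). It was also lost without replicate 1, 2 or 3 of the B6 controls or replicate 1, 2 or 4 of the A/J controls (log2 fold change -0.32 to -0.28, adjusted p = 0.053 to 0.0858). After BMS493 the level in A/J was not called higher than in B6 (0.20, SE 0.10, adjusted p = 0.156).

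Vegfd, on the X chromosome, showed the largest strain difference of the 9 genes. Its level was 65.95, 64.45, 65.48 and 68.98 CPM in B6 controls against 37.57, 37.05, 36.34 and 32.96 in A/J controls. After BMS493 it was 59.02, 93.02, 62.21 and 80.23 in B6 and 38.82, 46.24, 44.19 and 40.29 in A/J. No A/J library reached any B6 library. The log2 fold change A/J against B6 was -0.88 in controls (SE 0.11, adjusted p = 1.48e-06) and -0.80 after BMS493 (SE 0.10, adjusted p = 5.11e-06), which are levels 0.544 and 0.575 times those of B6. With the treatment the gene was not called: 0.16 in B6 (SE 0.10, adjusted p = 0.689) and 0.24 in A/J (SE 0.11, adjusted p = 0.726). The average over strains was 0.20 (adjusted p = 0.28), and it became a call with no filter (0.20, 0.0287). The B6 value was 0.02 without library 2, which held the highest Vegfd of all libraries. Of 9 mesenchymal genes, 3 were called lower in A/J controls, Meox2 (-0.48), Tcf21 (-0.35) and Col1a1 (-0.75), and 0 higher, while by sign 4 were lower and 4 higher. Col1a1 alone was at 1406 to 2102 CPM in A/J controls and 3031 to 3212 in B6 controls. The other 8 genes together had 1098 to 1214 CPM in A/J controls and 1120 to 1165 in B6 controls, so the strains overlapped.

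Both receptors were called between strains and neither with treatment. Flt4, on chromosome 11, the VEGFC receptor of lymphatic endothelium, was 60.02, 58.83, 68.05 and 56.65 CPM in B6 controls against 54.69, 51.77, 50.05 and 40.28 in A/J controls, with no overlap. After BMS493 B6 libraries were between 51.96 and 57.96 and A/J libraries between 40.86 and 46.04, again with no overlap. The log2 fold change A/J against B6 was -0.31 in controls (SE 0.08, adjusted p = 0.0101) and -0.36 after BMS493 (SE 0.08, adjusted p = 0.00285). Without library 3 of the B6 controls the control value was -0.25 and no longer called (adjusted p = 0.0563). Treatment values were -0.13 in B6 (SE 0.08, adjusted p = 0.666) and -0.18 in A/J (SE 0.08, adjusted p = 0.724). The average over strains was -0.16 (adjusted p = 0.258), and -0.20 (0.0448) without replicate 4 of the A/J controls.

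Nrp2, the co-receptor, on chromosome 1, was higher in A/J. B6 controls were at 92.55, 99.52, 98.51 and 90.22 CPM and A/J controls at 133.5, 134.2, 112.3 and 122.0, so that every A/J control was above every B6 control. After BMS493 B6 ranged from 89.10 to 93.91 and A/J from 103.4 to 123.5. The log2 fold change A/J against B6 was 0.40 in controls (SE 0.07, adjusted p = 0.000116) and 0.31 after BMS493 (SE 0.07, adjusted p = 0.00167), levels 1.32 and 1.24 times those of B6. Treatment values were -0.07 in B6 and -0.16 in A/J (SE 0.07 each, adjusted p = 0.805 and 0.665). Neural markers, which can share a source with Nrp2, had sums of 12.06 to 16.19 CPM among B6 controls and 15.43 to 19.44 among A/J controls. After BMS493 the neural sums were 9.303 to 11.63 in B6 and 12.63 to 17.53 in A/J, higher in A/J without overlap. Without Stmn2, the most abundant of the 7, the other 6 neural genes together had 7.344 to 8.717 CPM in B6 controls and 12.2 to 13.38 in A/J controls, also without overlap. Of the 7, 2 were called higher in A/J controls and 3 after BMS493, with 0 called lower. Smooth muscle markers had sums of 1393 to 1448 CPM among B6 controls and 1126 to 1430 among A/J controls, with 2 of 8 called higher in A/J and 2 lower; after BMS493 they were at 1153 to 1360 and 1118 to 1258, with 2 called higher and 1 lower. The part of these markers in the Nrp2 difference was not tested.

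**Figure D3:**
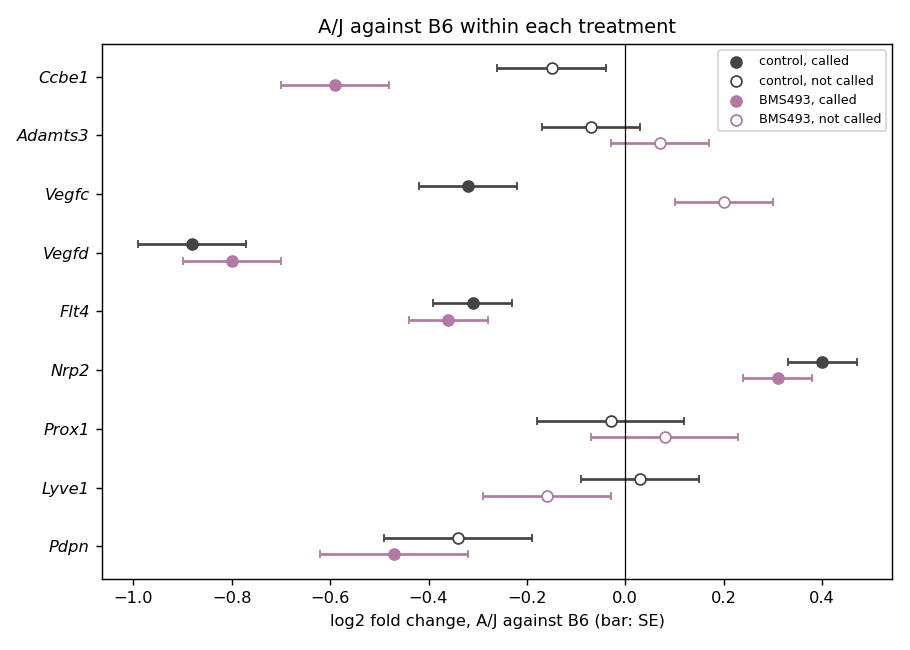
Log2 fold change A/J against B6 for each of the 9 genes in control and BMS493 lungs; lines are the SE and filled points mark calls. Vegfd and Flt4 are below 0 and Nrp2 above 0 in both treatments.

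Of the 9 genes, 4 were called between control strains, where 16.9% of all genes were called, and 5 between BMS493 strains, where 20.0% were. The 4 in controls were Vegfd, Nrp2, Flt4 and Vegfc; the 5 after BMS493 were Vegfd, Ccbe1, Nrp2, Flt4 and Pdpn. The median log2 fold change of the 9 was -0.15 and -0.16, beside 0.01 and 0.00 over all genes tested. The strain groups did not overlap for 5 of the 9 in controls and 4 after BMS493, where 24.3% and 19.5% of all genes did not. Averaged over treatments 5 of the 9 were called (Vegfd, Nrp2, Flt4, Ccbe1 and Pdpn), where 31.7% of all genes were.

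Promoter sequences are shown for the 2 members that were called lower in A/J in both treatments, a ligand and its receptor. They are the 250 bases before the RefSeq start site in GRCm38.p6, and they hold the reference sequence, not that of A/J. In capitals is a match to the core hexamer of a retinoic acid receptor site: the letters AGGTCA on either strand, or a variant, written AGTTCA for the inner letter, GGGTCA for the first letter and GGTTCA for both.

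Flt4, chr11:49609429-49609678, plus strand: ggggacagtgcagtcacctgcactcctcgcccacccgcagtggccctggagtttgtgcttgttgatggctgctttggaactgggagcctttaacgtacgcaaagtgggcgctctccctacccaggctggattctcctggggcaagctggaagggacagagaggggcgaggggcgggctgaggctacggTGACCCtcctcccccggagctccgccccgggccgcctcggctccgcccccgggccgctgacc

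Vegfd, chrX:164373272-164373521, plus strand: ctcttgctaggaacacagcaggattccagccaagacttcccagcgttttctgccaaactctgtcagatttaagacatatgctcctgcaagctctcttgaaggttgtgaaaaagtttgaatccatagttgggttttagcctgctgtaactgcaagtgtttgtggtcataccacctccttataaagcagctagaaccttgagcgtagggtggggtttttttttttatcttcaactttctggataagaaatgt

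The Flt4 stretch holds 1 such hexamer, TGACCC, the reverse complement of GGGTCA, 62 bases before the start site, and the Vegfd stretch holds none. Promoters were at hand for 7 of the 9 genes, in 8 entries; those of Ccbe1 and Lyve1 were not used here. Over 300 bases (250 before and 50 after the start) a hexamer was found in the Flt4 and Pdpn entries, the latter AGGTCA at 34 bases before the start, and a direct repeat of hexamers with a spacer of 1, 2 or 5 bases in none. Of 32851 promoters, 43.7% hold at least 1 of the 4 hexamers, 16.3% hold AGGTCA, and 0.222%, 0.268% and 0.0974% hold the repeats with spacers of 1, 2 and 5. Letter matches are a description of sequence, not binding sites.

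Lyve1, on chromosome 7, a hyaluronan receptor of lymphatic vessels, had the lowest treatment values among the 3 markers, short of a call. In B6 controls it was 51.61, 53.08, 53.51 and 54.16 CPM, and after BMS493 41.30, 61.18, 40.58 and 36.75. Library 2 was above all controls and the other three were below them. In A/J controls it was 52.57, 57.49, 51.69 and 54.74, and after BMS493 36.60, 50.02, 34.79 and 39.84, with no overlap. The log2 fold change was -0.23 in B6 (SE 0.13, adjusted p = 0.604) and -0.42 in A/J (SE 0.13, adjusted p = 0.25). Averaged over strains it was -0.33 (SE 0.09, adjusted p = 0.0801), in a comparison that called 1.37% of genes (1 of the 9, Ccbe1). Without library 2 of the B6 BMS493 group, the average was -0.42 (adjusted p = 0.000221), the A/J value, which shares its estimate of spread, -0.43 (0.0094), and the B6 value -0.42 (0.0565). Without library 3 of that group the average was -0.31 (adjusted p = 0.218), the A/J value -0.42 (0.331) and the B6 value -0.19 (0.779), none called. Without replicate 2 of the A/J BMS493 group the average was -0.39 (0.0136) and the A/J value -0.55 (0.0462). That library had the highest Lyve1 of its group and the highest alveolar type 1 sum, 395.2 CPM against 286.5 to 317.4. The average was also called by DESeq2 (-0.33, adjusted p = 0.0181), with no filter (-0.33, 5.81e-06), with the library set as a term (-0.34, 0.0408) and with the second stranded column (-0.41, 0.00271). The A/J value was also called with no filter (-0.42, 0.000179) and with only the 8 libraries compared (-0.42, 0.0286). With the replicate number as a term both the average (-0.35, 0.00445) and the A/J value (-0.44, 0.0243) were called. Of 12 macrophage markers, 11 were tested, and edgeR called 0 with treatment in either strain, with 2 at an unadjusted p under 0.05 in B6 and 0 in A/J; DESeq2 called 0. By sign 10 of the 11 were lower and 1 higher in B6, and 6 lower and 4 higher in A/J. The macrophage sum was 163.1 to 187.1 CPM in controls and 160.2 to 174.2 in treated lungs of B6, and 177.2 to 192.6 and 173.9 to 193.9 in those of A/J, so the groups of each strain overlapped. Cd163 was below 1 CPM.

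Prox1, on chromosome 1, was the least abundant member by CPM, between 5.75 and 10.67 (113 to 208 counts). Per kb of exon its mean in A/J BMS493 lungs was 0.9753, above that of Ccbe1 at 0.9445. The groups of Prox1 overlapped in all comparisons. The treatment values were -0.20 in B6 (SE 0.15, interval -0.53 to 0.13, adjusted p = 0.735) and -0.09 in A/J (SE 0.15, interval -0.42 to 0.24, adjusted p = 1.00). Without library 2 of the B6 BMS493 group, which had the lowest Prox1, the B6 value was -0.07. The exons of Prox1 share 1.59% of their bases with Prox1os on the opposite strand. Of the other tissues that use Prox1, liver markers had sums of at most 13.56 CPM. Heart markers, with Nppa at 0 in every library, had sums of 77.63 to 92.5 CPM in B6 controls and 41.76 to 90.77 after BMS493, and of 42.03 to 78.66 and 59.88 to 77.83 in A/J. Of the 5 tested heart genes 4 were lower after BMS493 in B6 (median -0.37) and 2 in A/J (median 0.24); edgeR called 0 in each strain, with 2 and 0 at an unadjusted p under 0.05, and DESeq2 called 1 and 0. Of the neuroendocrine markers, 4 of 7 were below 1 CPM. Their sums were 34.12 to 37.02 CPM in B6 controls and 22.96 to 34.11 after BMS493, lowest in library 2. In A/J the sums were 29.18 to 36.94 and 24.99 to 34.6. Without Bex2, the most abundant of the 7, the other 6 together had 11.28 to 14.95 and 9.175 to 11.31 CPM in B6. In A/J these 6 had 4.765 to 9.974 and 4.18 to 8.627. The 3 tested neuroendocrine genes were lower after BMS493 in both strains and none was called (edgeR and DESeq2 0 in each strain, 0 at an unadjusted p under 0.05). The part of heart and neuroendocrine markers in the Prox1 values was not tested.

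Pdpn, on chromosome 4, encodes podoplanin, a surface glycoprotein. It was 26.71, 22.51, 22.90 and 27.15 CPM in B6 controls and 20.64, 17.62, 22.18 and 17.87 in A/J controls. After BMS493 it was 19.69, 38.52, 24.50 and 26.07 in B6 and 18.74, 21.73, 18.14 and 20.45 in A/J. The strain difference was -0.34 in controls (SE 0.15, adjusted p = 0.124) and -0.47 after BMS493 (SE 0.15, adjusted p = 0.0266), with overlapping groups only after BMS493. Library 2 of the B6 BMS493 group, where the alveolar type 1 markers were highest, held the highest Pdpn, and without it the value was -0.24 (adjusted p = 0.164). The call was also lost without replicate 1, 3 or 4 of the A/J BMS493 group (-0.44, -0.43 and -0.48, adjusted p = 0.0764, 0.0793 and 0.0559), with only the 8 libraries compared (0.0842) and with the second stranded column (0.051). The control value passed without library 2 of the B6 BMS493 group (-0.34, adjusted p = 0.0223), with only the 8 libraries compared (-0.33, 0.0124) and with no filter (-0.34, 0.0112). Of 7 alveolar type 1 markers, 1 was called lower in A/J controls and 3 after BMS493, with 0 called higher; by sign 5 were lower in each treatment, with 1 higher in controls and 2 after BMS493. Their sums were 383.0 to 421.1 CPM in B6 controls and 270.4 to 296.5 in A/J controls, and 352.6 to 668.6 and 286.5 to 395.2 after BMS493. Mesothelium markers had sums of 142.8 to 160.1 CPM in B6 controls and 146.4 to 151.7 in A/J controls. After BMS493 the mesothelium sums were 136.3 to 155.0 in B6 and 119.0 to 136.0 in A/J, lower in A/J without overlap. In A/J they were also below the control sums without overlap. Between treated strains Krt19 had a mean of 63.44 CPM in B6 and 35.84 in A/J. Upk3b (40.79 and 50.98) and Wt1 (8.043 and 13.58) had higher means in A/J. By sign 3 of the 7 were lower in A/J and 4 higher. Of the 7 mesothelium markers, 1 was called higher and 1 lower in A/J controls, 2 higher and 3 lower after BMS493, and 0 with treatment in either strain (2 at an unadjusted p under 0.05 in B6 and 3 in A/J; DESeq2 called 1 and 0). The part of both lists in the Pdpn difference was not tested. Treatment values of Pdpn were 0.14 in B6 (-0.08 without library 2) and 0.01 in A/J (adjusted p = 0.81 and 1.00).

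**Figure D4:**
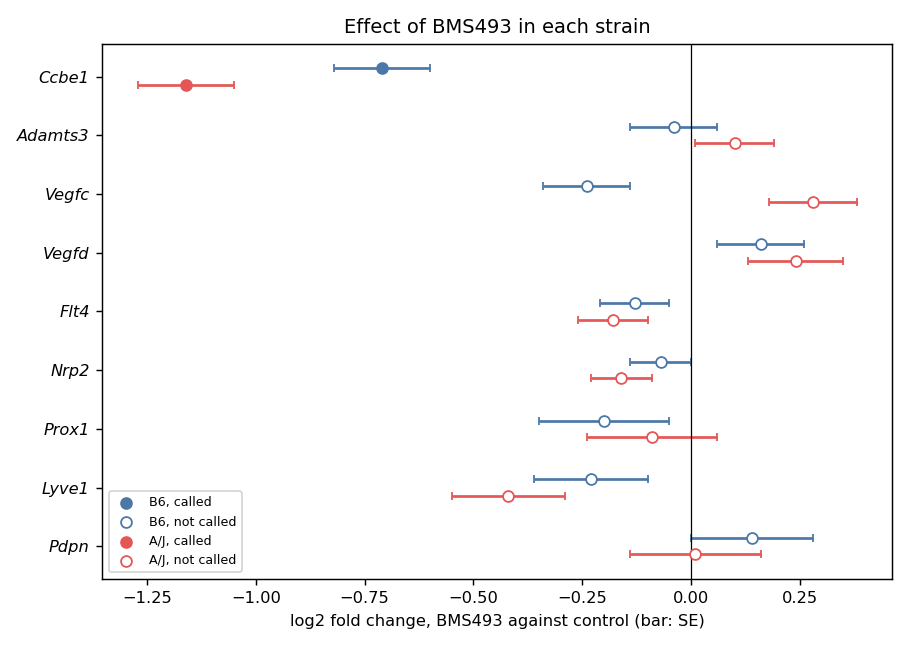
Log2 fold change BMS493 against control for each of the 9 genes in B6 and A/J; lines are the SE and filled points mark calls. Ccbe1 is the only gene called, in both strains (-0.71 and -1.16).

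At an unadjusted p under 0.05, 2 of the 9 genes passed for treatment in B6 (Ccbe1 and Vegfc) and 6 in A/J (Ccbe1, Lyve1, Vegfc, Nrp2, Flt4 and Vegfd), where 1573 and 1076 of all genes did. DESeq2 called Ccbe1 alone of the 9 in each strain.

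Other genes of the pathway and of lymphatic vessels were taken from lists chosen with earlier results known. With BMS493 edgeR called 0 of 12 other VEGF family and processing genes, 0 of 9 transcription factors of lymphatic specification, 0 of 21 further lymphatic genes and 0 of 14 blood endothelial markers in each strain. At an unadjusted p under 0.05 the numbers were 4, 1, 3 and 1 in B6 and 1, 0, 2 and 2 in A/J. DESeq2 called Ccl21a, a chemokine of lymphatic endothelium with near-identical copies, in B6 and the endothelial gene Robo4 in A/J. Both are named after their values were seen; in edgeR they were at -0.63 (adjusted p = 0.12) and -0.33 (0.128). The median log2 fold change of the 21 further lymphatic genes was -0.03 in B6 and -0.02 in A/J, near the 0.01 and 0.00 of all genes. Of 9 mesenchymal genes, 1 was called higher and 1 lower in B6 and 1 higher and 0 lower in A/J, where 0.423% and 0.486% of all genes were called. Meox2 rose in both strains (0.35 and 0.51, adjusted p = 0.0164 and 9.42e-05). Foxf1 fell in B6 (-0.40, adjusted p = 0.0233) and was at -0.25 in A/J (adjusted p = 0.337), lower without overlap in both; the difference between strains was 0.15 (adjusted p = 0.999).

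Between strains, 16.9% of all genes were called in controls (1700 lower in A/J and 1216 higher) and 20.0% after BMS493 (2077 lower and 1370 higher), so calls over all genes were also more often lower in A/J. All 14 blood endothelial markers were lower, 7 called in controls and 10 after BMS493, with medians of -0.37 and -0.45; Aplnr (-0.66), Esam (-0.45), Pecam1 (-0.38) and Robo4 (-0.36) had the smallest adjusted p in controls. Of the 9 transcription factors, 4 were called lower in controls: Nfatc1 (-0.70), Gata2 (-0.67), Nr2f2 (-0.19) and Sox18 (-0.31). Of the 12 VEGF family and processing genes, 3 were called, all lower: Adamts2 (-0.83) and Adamts14 (-0.67), relatives of Adamts3, and Nrp1 (-0.44), the neuropilin related to Nrp2. Of the 21 further lymphatic genes, 2 were called higher in A/J controls and 3 lower, among them Reln (0.91), Ramp2 (-0.44), Tek (-0.38) and Tie1 (-0.42). After BMS493 the calls were 4 lower in the VEGF list, 3 lower among the transcription factors, and 1 higher and 3 lower among the further lymphatic genes.

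Set against the mean log2 CPM of the 14 blood endothelial markers in the same library, the members differed. That mean was itself lower in A/J (-0.38 in controls and -0.44 after BMS493, without overlap). A member with the same CPM in both strains is therefore higher in A/J on this scale. The Flt4 difference between strains became 0.07 in controls and 0.08 after BMS493, with overlapping groups. Vegfd was still lower in A/J (-0.50 and -0.34) and Nrp2 higher (0.77 and 0.74), both without overlap. Lyve1, not called between strains, was 0.41 higher in A/J controls on this scale, without overlap, and 0.30 higher after BMS493, with overlap. The Ccbe1 difference between strains after BMS493 became -0.13, and that of Pdpn 0.02, with overlapping groups. Adamts3 was higher in A/J on this scale (0.31 in controls and 0.51 after BMS493), as was Vegfc after BMS493 (0.65), without overlap. By CPM the strain values of Adamts3 were -0.07 and 0.07, not called. In controls the Vegfc difference, called lower in A/J by CPM, was 0.06 with overlap. For treatment, the Ccbe1 difference was -0.67 in B6 and -1.04 in A/J, both without overlap, and in A/J Vegfc (0.39) and Vegfd (0.34) were higher without overlap while Lyve1 (-0.33) overlapped. These differences are descriptions, and the part of endothelial content in the strain results was not tested.

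**Figure D5:**
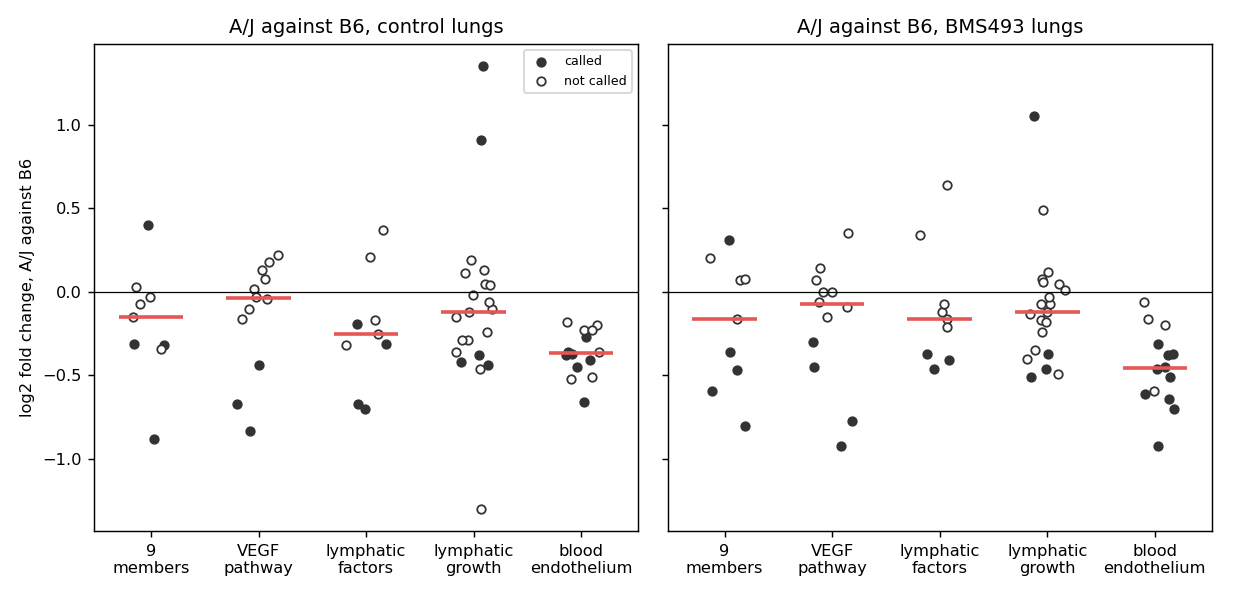
Log2 fold change A/J against B6 of each gene in 5 lists, in control and BMS493 lungs; each point is a gene, filled where called, and the red line is the list's median. The lists are the 9 members, the VEGF list, the transcription factors, the further lymphatic genes and blood endothelium. All 14 blood endothelial markers lie below 0 in both treatments.

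Last, each member was compared with 13039 protein-coding genes at a mean CPM of at least 1, by the Pearson r of log2 CPM after removing group means over the 16 libraries. This measures shared variation between libraries of a group, including their cell content. Lyve1 was nearest to Prkci, Col4a3 and Mpp7 (r = 0.94 each), and Pdpn to Grhl2 (0.93), Cpm (0.91) and Egfl6 (0.90). Flt4 was nearest to Nid2 (0.93), Lrrc32 (0.91) and Mllt1 (0.87), Nrp2 to Dst (0.93), Bdkrb2 (0.92) and Tiam1 (0.84), and Vegfd to Bgn (0.91), Arhgap44 and Wwox (0.89 each). Ccbe1 was nearest to Polr3g (0.88), Rae1 and Zfp459 (0.85 each). Vegfc was nearest to Pls1 (0.87), with Cd86 (0.83) also among its top 3, Adamts3 to Prpf40b (0.89), Jak1 (0.87) and Neurl4 (0.83), and Prox1 to Lrfn2 (0.88), Dhx29 (0.84) and Vapb (0.83). These genes are from the top 3 of many over 16 libraries and are given without a test. Library 2 of the B6 BMS493 group, which held the highest Lyve1 and Pdpn, was included, and no r was computed without it.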

How the data were processed

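Raw counts of 57180 genes were deposited by the authors in a file for each of the 16 libraries; 4 lines of unassigned reads were left out. Per the submitters' processing notes FastQC, cutadapt and STAR were used with genome build GRCm39; versions and annotation are not given in the sources used here. The first stranded column held 51.0% to 52.0% of the stranded counts, so the column without strand was used. Genes assigned took 71.7% to 76.9% of fragments, and multimapping fragments 2.81% to 3.29% in B6 and 3.62% to 4.06% in A/J. GRCm39 is a C57BL/6J genome, and how that bears on strain differences was not tested. Symbols came from GENCODE M21 and a table of gene names (51933 genes matched, 98.88% of counts). Exon lengths and overlaps came from M21, which is on GRCm38.p6 and not on the build of the counts. Coordinates are therefore given only for the promoter stretches of Flt4 and Vegfd, in GRCm38.p6.

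Groups came from the sample titles. filterByExpr of edgeR 4.0.16 in R 4.3.3 kept 17276 genes, TMM scaled the libraries, and all 16 libraries entered a robust quasi-likelihood model of the 4 groups (12 residual degrees of freedom). Contrasts were BMS493 against control in each strain, their difference and average, and A/J against B6 in each treatment and averaged; p-values are two-sided. The SE is the log2 fold change over the square root of F. Log2 CPM used a prior count of 2. Tables were assembled with Python 3.11.15 and pandas 2.3.3. Replicate pairs differed beyond counting noise (24 pairs, chi-square per degree of freedom 3.439 to 28.96).

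All 9 members were named whatever their result, the genes of other lists by count with up to 4 called genes of smallest adjusted p, the 5 retinoic acid targets always, and for likeness the 3 nearest genes. Some genes that this rule names are not reported here. Members and lists were chosen with earlier results of these data known. Alternatives were RLE scaling, DESeq2 1.42.0, no filter, only the 8 libraries compared, a minimum mean CPM of 1, a replicate block, the library set, each stranded column and leaving out each library.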

Additional observations from a re-analysis of the deposited data

How the results depend on the processing

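The Ccbe1 treatment calls held in all 25 alternatives in each strain, with log2 fold changes of -0.80 to -0.64 in B6 (adjusted p up to 0.0412) and -1.28 to -1.09 in A/J (up to 8.07e-06), and the strain calls of Vegfd and Nrp2 held in all 25 in controls and after BMS493. Of 1548 values of the 9 genes over contrasts and alternatives, 1479 kept their direction and side of the threshold, 15 were no longer called, 17 became called and 37 changed sign, none of them called on either side. Only Ccbe1 was called with treatment in all of them; Lyve1 in A/J became a call in 5 of 25 alternatives and its average in 7 of 24.

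For the whole table, genes called with treatment in B6 (73) were 162 with DESeq2, 260 with no filter and 27 with only the 8 libraries compared, and 27 to 201 leaving out 1 library. Those in A/J (84) were 158, 178 and 133, and 52 to 121. The difference between strains (1 gene) gave 2 with DESeq2 and 12 with no filter, and 1 to 2 leaving out 1 library. The average (237) gave 396 and 487, and 165 to 371. Members called in A/J (1) were 2 with no filter, with only the 8 libraries and with the replicate block, and 1 to 2 leaving out 1 library. Members called in the average (1) were 2 with DESeq2, the library set, the second stranded column and the replicate block, 3 with no filter, and 1 to 2 leaving out 1 library. Members called between control strains (4) were 2 to 5, with 2 without replicate 3 of the B6 controls. The cause of these moves was not tested.

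Same-numbered replicates showed little common deviation from their group means (16 pairs, r from -0.147 to 0.145, 1 over 0.1). Of 32 comparisons of a library with the other group, 8 gave its own number the highest correlation. In sample order, replicates 1 and 2 of every group came before replicates 3 and 4, which is the library set. A shared litter or batch was not tested, as the labels do not give them. With the replicate block 71, 92, 1 and 260 genes were called for treatment in B6, in A/J, their difference and their average, and 2979, 3474 and 5444 between strains in controls, after BMS493 and averaged. The block made Lyve1 a call in A/J (-0.44, adjusted p = 0.0243) and in the average (-0.35, 0.00445). Prox1 had the fewest counts of the 9 genes, 113 to 208 a library.

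Sign changes were as follows. With a stranded column, Pdpn was -0.07 for treatment in A/J, Adamts3 0.05 and Prox1 0.01 between control strains, Prox1 -0.03 between BMS493 strains, and Adamts3 and Prox1 -0.06 each in the strain average. Leaving out 1 library, the treatment values spanned -0.12 to 0.03 for Adamts3 and -0.08 to 0.27 for Pdpn in B6, and -0.15 to 0.01 for Prox1 and -0.04 to 0.08 for Pdpn in A/J. Their difference spanned -0.02 to 0.21 for Vegfd and for Prox1, -0.13 to 0.00 for Flt4 and -0.26 to 0.09 for Pdpn, and their average -0.01 to 0.06 for Adamts3, -0.02 to 0.05 for Vegfc and -0.04 to 0.14 for Pdpn. Between strains the spans were -0.11 to 0.07 for Prox1 and 0.00 to 0.05 for Lyve1 in controls, -0.05 to 0.18 and -0.28 to 0.03 after BMS493, and -0.04 to 0.07 and -0.13 to 0.03 averaged, with Adamts3 averaged at -0.03 to 0.03.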
